A study of Mus musculus with 4 samples.

Results

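The genes described here encode the machinery that copies DNA and the machinery that divides the copied chromosomes. They are 42 genes listed by function, 19 for DNA replication and 23 for mitosis. The rule uses no measured value and no filter on signal, although the list was drawn up with earlier results of these data known. RNA was measured in peritoneal macrophages from mice labelled wild type for Pparg (WT) and from mice labelled Pparg knockout (KO), on 2 arrays per genotype and 4 in all, with a 1-colour Affymetrix platform. Pparg encodes PPARγ, a nuclear receptor activated by lipids. All mice had a mixed 129/SV and C57BL/6 background and received 2.5 ml of 3% thioglycollate, an irritant that recruits cells derived from blood monocytes to the peritoneum, 3 days before lavage. The cells of both genotypes were plated in 10% serum, washed after 5 h and then held for 24 h in medium with 0.5% serum, with no ligand or cytokine named. The age of the mice, the deleted part of the gene and the cells in which it was deleted are not given in the sources used here. Whether the 2 arrays of a genotype stand for different mice is not stated in the labels, and the descriptions of both replicate 2 arrays carry the suffix dup, so every SD and p-value measures only array-to-array spread, which may be technical.

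A dividing cell loads the MCM helicase, a ring of 6 related subunits, onto DNA before S phase and then fires it so that primase and polymerases can copy the strands. Cyclin B with the kinase CDK1 later drives the cell into mitosis, where kinesins and Aurora and Polo kinases build the spindle and the spindle checkpoint holds back the anaphase-promoting complex until chromosomes are attached. The genes of the first group are typically switched on by E2F factors, and those of the other by B-MYB and FOXM1 acting with the MuvB complex at CHR elements. Macrophages elicited by an irritant and kept in low serum are known to divide little, so transcripts of both groups are usually scarce in them.

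Of the 42 genes, 34 had at least 1 probe set of their own with values, 16 of the replication genes and 18 of the mitosis genes, among 7577 genes measured in this way in all. These 34 genes had 43 probe sets with values, and 8 of them had more than 1. A further 2 probe sets of Bub1 and 1 each of Mcm5 and Mki67 were blank on all 4 arrays. For Prim1, Rfc4, Mad2l1, Kif11 and Kif2c every listed probe set was blank on all 4 arrays, and no probe set is listed for Ccnb1 and Bub1b. Tyms, the thymidylate synthase gene, shares its 2 probe sets with the pseudogene Tyms-ps, so they are counted for no gene. Those 2 probe sets read 88.5 and 93.1 on WT replicate 1, 78.5 and 81.8 on WT replicate 2, 92.5 and 90.8 on KO replicate 1, and 88.1 and 97.8 on KO replicate 2, with log2 changes of 0.10 and 0.09 that did not pass the test (adjusted p = 0.957 and 0.965).

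Promoter sequences were available from RefSeq (build GRCm38.p6) for 35 of the 42 genes, and 4 are shown. They belong to the helicase genes (Mcm3 and Mcm5) and the cyclin and CDK genes (Cdk1 and Ccnb2) with the largest differences between genotypes in their group. Each is the 250 bases before the annotated start, on the strand of the gene. They lie at chr1:20820313-20820562 (minus strand), chr8:75109259-75109508 (plus), chr10:69352913-69353162 (minus) and chr9:70421555-70421804 (minus). Capitals mark matches on either strand to the E2F letters TTNNCGC with CC, GG, CG or GC in place of NN, to the CHR letters TTTGAA and to the NF-Y box CCAAT.
Mcm3: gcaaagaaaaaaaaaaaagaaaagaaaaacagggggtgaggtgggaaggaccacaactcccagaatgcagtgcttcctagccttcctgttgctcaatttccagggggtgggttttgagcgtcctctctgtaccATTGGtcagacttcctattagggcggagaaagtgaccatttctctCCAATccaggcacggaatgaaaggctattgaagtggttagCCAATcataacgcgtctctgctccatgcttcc
Mcm5: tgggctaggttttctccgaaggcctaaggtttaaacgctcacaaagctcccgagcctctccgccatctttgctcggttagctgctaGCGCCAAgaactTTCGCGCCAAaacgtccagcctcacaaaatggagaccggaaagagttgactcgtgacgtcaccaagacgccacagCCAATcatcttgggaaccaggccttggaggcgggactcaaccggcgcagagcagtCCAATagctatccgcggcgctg
Cdk1: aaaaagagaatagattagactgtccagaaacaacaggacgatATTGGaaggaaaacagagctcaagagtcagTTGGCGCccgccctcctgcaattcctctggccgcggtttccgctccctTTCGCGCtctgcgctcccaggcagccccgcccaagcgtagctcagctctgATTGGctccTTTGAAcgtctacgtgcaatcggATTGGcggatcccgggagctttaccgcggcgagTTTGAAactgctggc
Ccnb2: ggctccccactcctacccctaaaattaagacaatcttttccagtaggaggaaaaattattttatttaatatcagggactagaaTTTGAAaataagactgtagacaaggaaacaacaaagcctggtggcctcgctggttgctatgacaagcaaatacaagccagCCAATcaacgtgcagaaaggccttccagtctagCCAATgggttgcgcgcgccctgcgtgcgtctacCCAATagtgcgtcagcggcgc

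The Mcm3 window holds 3 CCAAT matches, the first 117 bases before the start, and neither the E2F nor the CHR letters. The Mcm5 window holds 3 E2F matches, of which those beginning 152 and 149 bases before the start overlap each other. The Cdk1 window holds 2 E2F, 2 CHR and 3 CCAAT matches, and the Ccnb2 window 1 CHR and 3 CCAAT matches. Over the replication genes with an entry, 8 of 17 held an E2F match and 1 of 17 a CHR match, whereas over the mitosis genes 3 of 18 held an E2F match and 9 of 18 a CHR match. Among all 32851 promoter windows of this length, 7.887% held the E2F letters, 15.99% the CHR letters and 33.85% CCAAT, which was present in 10 of 17 replication and 15 of 18 mitosis genes. Among genes with values, the 8 with a CHR match had a median log2 change between genotypes of 0.10 and the 19 without had 0.07, and for the E2F letters these medians were 0.06 (9 genes) and 0.09 (18 genes). A match is a description of letters in this window and not a binding site.

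Signals are the deposited intensities, on a linear scale. Array medians ran from 136.7 to 142, and the median of the 12 antisense control probe sets, used here as a mark of unspecific signal because the table holds no detection calls, ran from 103.8 to 116. The highest of these controls read 144.2 and 156.7 on WT replicates 1 and 2 and 150.1 and 143.7 on KO replicates 1 and 2. All 10 macrophage markers with values exceeded the antisense control median on all 4 arrays, with summed signals of 33473 and 33846 in WT and 32012 and 36570 in KO. None of the 10 was called, and 5 had a higher mean in KO. Adgre1 was the 1 with an unadjusted p under 0.05 in limma's test, at 1429.2 and 1421.2 in WT and 1062.8 and 1212.8 in KO (log2 change -0.32, adjusted p = 0.35). The 1 Pparg probe set read 61.1 and 73.1 in WT and 43.0 and 40.6 in KO, below the antisense median on every array (log2 change -0.52, adjusted p = 0.00012), and may lie outside the deleted part. Each log2 change is the KO mean minus the WT mean of log2(signal + 16), with its standard error (SE) from limma. Folds are taken on that scale and so understate changes of dim genes. P-values from limma were adjusted by the Benjamini-Hochberg method over all 10649 probe sets. A gene is represented by its brightest probe set.

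Of the 34 genes, 19 exceeded the antisense control median on all 4 arrays, 10 for replication and 9 for mitosis. On no array was it exceeded by 6 replication genes (Mcm6, Cdc6, Prim2, Pola1, Rrm2 and Chek1) or by 7 mitosis genes (Aurka, Bub1, Ube2c, Birc5, Mki67, Top2a and Hmgb2), and Kif20a and Nek2 exceeded it on some arrays. Of the 19, Mcm4, Mcm7, Ccnb2, Cdk1, Aurkb, Stmn1 and Cenpa did not exceed the highest antisense control on every array. Mcm7 and Aurkb exceeded that control on KO replicate 2 only, and Cenpa on no array. Both WT signals of Cdk1 (119.6 and 129.7) and of the brighter Stmn1 probe set (105.2 and 119.3) lay below that control on their arrays. Mki67, whose product Ki-67 coats mitotic chromosomes, read 53.0 and 51.5 in WT and 58.1 and 46.5 in KO. Top2a, the topoisomerase that untangles sister chromosomes, read 66.5 and 76.0 in WT and 78.8 and 83.2 in KO. For these common markers of dividing cells the signal of the 1 probe set with values was thus at the level of unspecific hybridisation in both genotypes.

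**Figure D1:**
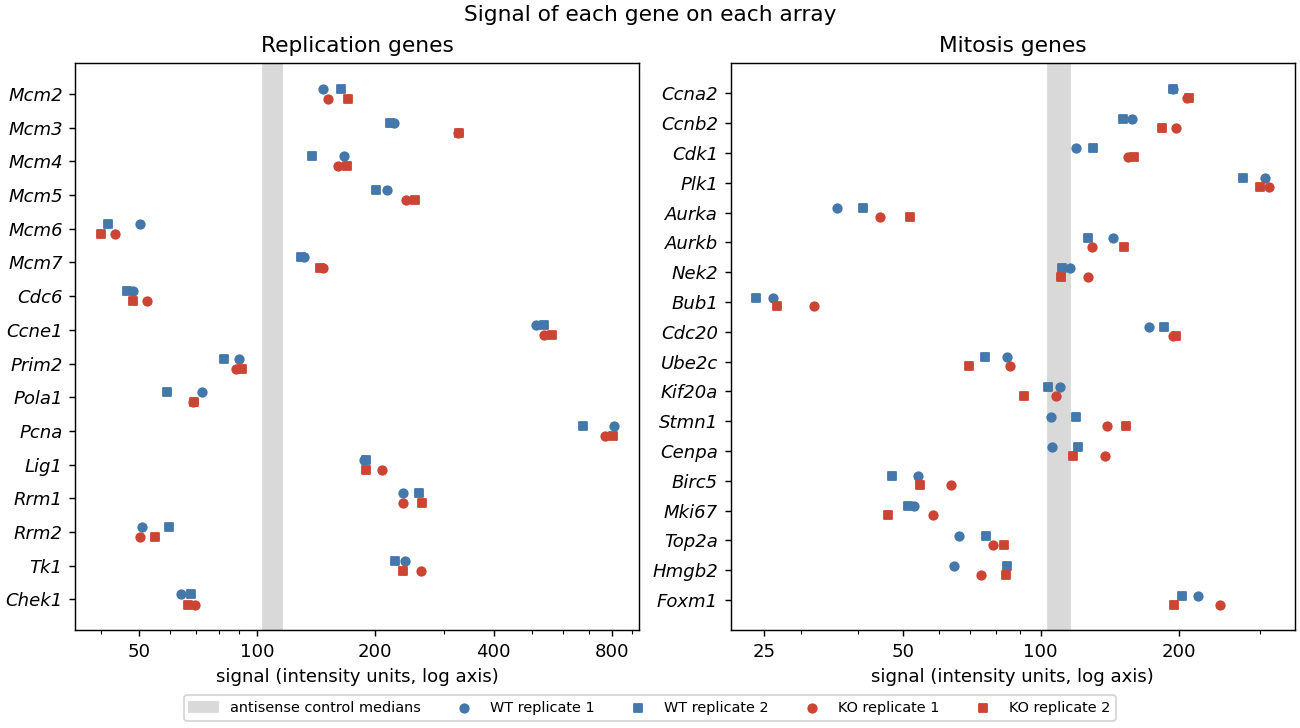
Signal of each of the 34 genes on each array (horizontal log axis, intensity units), with replication genes on the left and mitosis genes on the right. Blue marks are WT and red marks KO arrays, circles are replicate 1 and squares replicate 2, and the grey band spans the antisense control medians of the arrays (103.8 to 116). The Mcm3 arrays lie apart by genotype, and 13 genes lie left of the band on every array.

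Mcm3 was the 1 gene of the 34 that differed between genotypes by the test. Its brightest probe set (160496_s_at) read 223.3 and 217.8 in WT and 324.4 and 327.2 in KO. Both KO arrays lay above both WT arrays, by far more than the arrays within a genotype differed. The mean rose from 220.6 ± 3.89 to 325.8 ± 1.98 (SD, n = 2 each), a log2 change of 0.53 (SE 0.12) or 1.45-fold, with adjusted p = 0.0014. The other probe set (100062_at) was dimmer, near the antisense control median in WT, with 111 and 94.5 in WT and 151.4 and 162.9 in KO. It gave nearly the same change, 0.55 (SE 0.11, adjusted p = 0.00015). The suffix s marks a probe set whose probes can match more than 1 transcript, which does not apply to 100062_at. In bulk samples such as these, a change in the number of cells that carry a transcript and a change in its level per cell cannot be told apart.

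The call of Mcm3 was lost without moderation and with a WT array left out, and held for its brightest probe set in the other alternatives run. The log2 change ran from 0.45 to 0.57 for the brightest probe set and from 0.41 to 0.65 for the dimmer one over the alternatives. Without WT replicate 1 the log2 change of the brightest probe set was 0.55 (adjusted p = 0.29), and without WT replicate 2 it was 0.51 (adjusted p = 0.41). The dimmer probe set kept the call without WT replicate 1 (0.65, adjusted p = 0.0076) and lost it without WT replicate 2 (0.45, adjusted p = 0.28). With each probe set's own spread and no moderation, adjusted p was 0.73 and 0.74 for the brighter and the dimmer probe set, and no probe set of the series was called. At an unadjusted p under 0.05 that fit holds 704 probe sets, both of Mcm3 among them.

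The other 5 subunits of the helicase did not pass. Mcm5 came nearest, with 214.9 and 201.3 in WT and 238.9 and 253.2 in KO (log2 change 0.23, SE 0.12, adjusted p = 0.54), and its genotypes did not overlap. Mcm7, another ring subunit, read 131.5 and 129.6 in WT and 147.4 and 145.0 in KO (log2 change 0.15, adjusted p = 0.84), again without overlap. Mcm4 read 166.6 and 138.0 in WT and 161.2 and 169.8 in KO, and Mcm2 read 147.5 and 163.7 against 151.6 and 170.2. In both the KO arrays fell within or next to the WT range, with log2 changes of 0.11 and 0.04. Mcm6, far below the antisense control median, read 50.5 and 41.8 in WT and 43.5 and 40.1 in KO (log2 change -0.10). The median change over the 6 subunits was 0.13. Whether Mcm3 differed more than the other subunits was not tested.

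**Figure D2:**
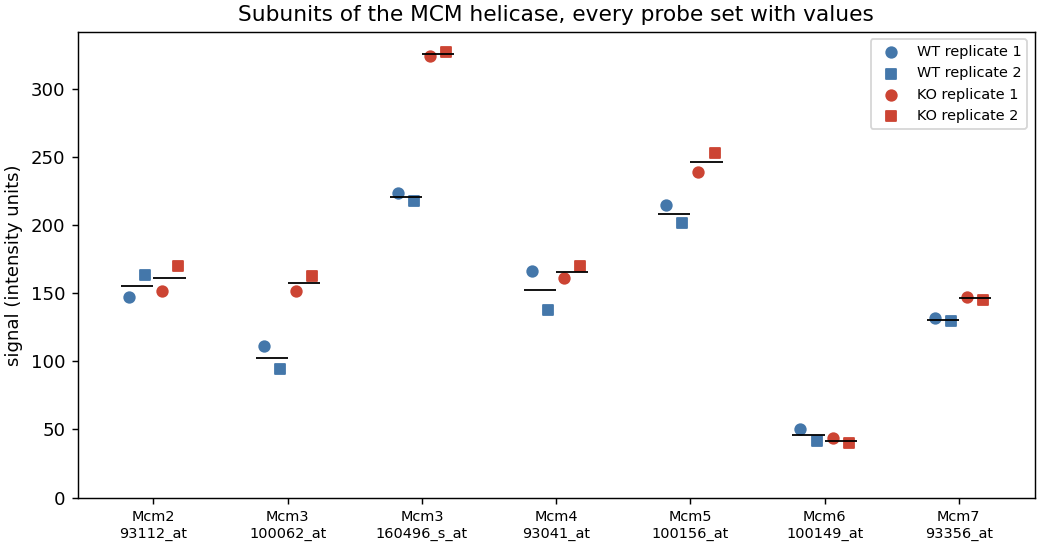
Signal (vertical axis, intensity units, from 0) of every probe set with values for the 6 MCM helicase subunits. Points are single arrays, coloured by genotype and shaped by replicate, and black lines are the means of 2 arrays. Both Mcm3 probe sets have both KO arrays above both WT arrays, Mcm5 and Mcm7 do so by less, and Mcm2, Mcm4 and Mcm6 overlap.

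Licensing, synthesis and nucleotide supply genes were near equal in the genotypes. Pcna, the sliding clamp that holds the polymerase on DNA, read 808.4 and 677.2 in WT and 768.9 and 803.7 in KO, so its genotypes overlapped and the WT arrays differed more than the means did (742.8 ± 92.8 and 786.3 ± 24.6, log2 change 0.09). Ccne1, the cyclin that starts S phase with CDK2, read 511.7 and 537.3 in WT and 538.7 and 563.9 in KO. It did not overlap, by a narrow margin, and its log2 change of 0.07 did not pass (adjusted p = 0.999). Cdc6, which loads the helicase, was dim, at 48.5 and 46.7 in WT and 52.6 and 48.4 in KO.

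Lig1, the ligase that seals Okazaki fragments, read 186.9 and 189.3 in WT and 208.2 and 189.4 in KO (log2 change 0.07). Tk1, which salvages thymidine, read 238.1 and 225.2 in WT and 261.8 and 235.9 in KO (log2 change 0.10, adjusted p = 0.98). In both genes 1 KO array lay within or next to the WT range. The dimmer probe sets of Lig1 and Tk1, below the antisense control median on every array, had log2 changes of -0.01 and -0.11. Prim2, a primase subunit, read 89.8 and 82.3 in WT against 88.6 and 91.8 in KO, and Pola1, the polymerase that extends the primer, read 72.3 and 59.2 against 68.6 and 69.2. Chek1, the kinase that answers stalled forks, read 64.2 and 68.0 against 69.4 and 66.7. These 3 were below the antisense control median on every array, with overlapping genotypes and log2 changes of 0.06, 0.06 and 0.03. The ribonucleotide reductase genes Rrm1 and Rrm2, which make deoxyribonucleotides, had log2 changes of 0.01 and -0.05.

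The 3 cyclin and CDK genes of the mitosis list with values were higher in KO, without passing the test. Cdk1 read 119.6 and 129.7 in WT and 155.2 and 160.0 in KO, means of 124.7 ± 7.14 and 157.6 ± 3.39 (log2 change 0.30, SE 0.11, 1.23-fold, adjusted p = 0.16). Ccnb2, the B-type cyclin measured here, read 157.7 and 151.4 in WT and 197.1 and 183.3 in KO (log2 change 0.27, SE 0.12, 1.21-fold, adjusted p = 0.28). Ccna2, which pairs with CDKs in S and G2 phase, read 194.1 and 194.4 in WT and 208.7 and 210.0 in KO (log2 change 0.10, adjusted p = 0.97). In all 3 genes both KO arrays exceeded both WT arrays (10.6% of all genes), by the widest margins for Cdk1 and Ccnb2. The 95% intervals of the change were 0.08 to 0.53 for Cdk1 and 0.04 to 0.50 for Ccnb2. Cdk1 passed after quantile normalization (0.33, adjusted p = 0.038) and after cyclic loess (0.33, adjusted p = 0.039). It did not pass after median centring (0.33, adjusted p = 0.11), and with 1 array left out its log2 change ran from 0.25 to 0.36.

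Stmn1, which encodes the microtubule-destabilising protein stathmin, gave opposite answers from its 2 probe sets. The brighter (97909_at) read 105.2 and 119.3 in WT and 139.6 and 153.7 in KO (log2 change 0.34, SE 0.11, adjusted p = 0.072), with both KO arrays above both WT arrays. The dimmer (97910_at) read 95.3 and 92.3 in WT and 87.3 and 77.3 in KO (log2 change -0.16, adjusted p = 0.76), with both KO arrays below, and all 4 of its signals lay below the antisense control median. The brighter one passed after quantile normalization (adjusted p = 0.017), cyclic loess (0.014) and median centring (0.041). With 1 array left out its log2 change ran from 0.26 to 0.42. With the 2 probe sets averaged, Stmn1 had a log2 change of 0.09 and did not pass (adjusted p = 0.93).

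None of the 5 mitotic kinase genes passed the test. Aurka, the kinase that matures spindle poles, read 35.9 and 41.0 in WT and 44.6 and 52.0 in KO (log2 change 0.24, SE 0.11, adjusted p = 0.33). Its genotypes did not overlap, at signals far below the antisense control median. Bub1, a spindle checkpoint kinase, was the dimmest gene at 26.1 and 24.0 in WT against 32.0 and 26.6 in KO. Aurkb, the kinase of the chromosomal passenger complex, had a log2 change of 0.05. Nek2, which splits the centrosomes, also had 0.05. The probe sets of Plk1, the Polo kinase, ran from -0.12 to 0.07 and so differed in sign. Aurkb and the 2 brighter Plk1 probe sets exceeded the antisense control median on all arrays. The dimmest Plk1 probe set (93099_f_at, log2 change -0.12) exceeded it on 1 array.

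Cdc20, which activates the anaphase-promoting complex, read 172.2 and 185.4 in WT and 193.7 and 196.7 in KO, without overlap (log2 change 0.12, adjusted p = 0.93). Birc5, which encodes survivin of the passenger complex, read 54.0 and 47.5 in WT and 63.8 and 54.7 in KO, and Cenpa, the histone variant of centromeres, read 105.6 and 120.3 against 138.0 and 117.8. Their log2 changes were 0.17 and 0.16, and the genotypes of Cenpa overlapped. Top2a had 0.15 (adjusted p = 0.78), without overlap. Hmgb2, a chromatin-bending protein, read 64.6 and 84.5 in WT against 74.0 and 83.9 in KO. Foxm1, the factor that drives many mitotic genes, read 220.6 and 202.7 in WT and 245.4 and 195.4 in KO. In Hmgb2 the WT arrays, and in Foxm1 the KO arrays, lay on both sides of the other genotype. Kif20a, a kinesin of cell separation, read 110.2 and 103.9 in WT and 107.9 and 92.1 in KO (log2 change -0.09), and the remaining mitosis genes with a lower log2 mean in KO were Ube2c (-0.04), an ubiquitin enzyme of anaphase, and Mki67 (-0.0041).

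**Figure D3:**
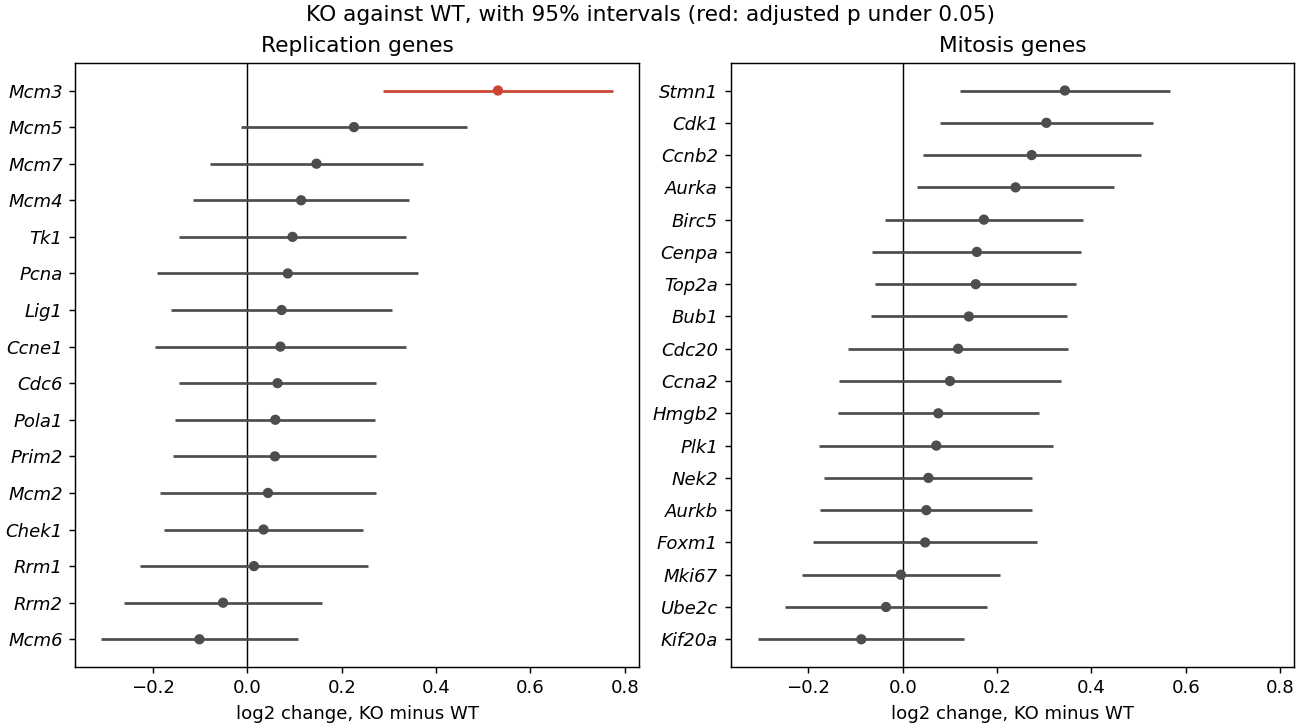
Log2 change, KO minus WT (horizontal axis), of the 34 genes with 95% intervals from the limma fit, ordered by size within replication (left) and mitosis (right). Red marks an adjusted p under 0.05. Mcm3 at 0.53 is the gene marked, the intervals of Stmn1, Cdk1, Ccnb2 and Aurka lie above 0 before adjustment, and those of the other 29 genes include 0.

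Counted over the list, 1 of 34 genes rose, 0 fell and 33 did not pass limma's test, against 0.937% of all 7577 genes called higher and 2.32% called lower (3.26% in either direction). An unadjusted p under 0.05 was reached by 5 of the 34 (Mcm3, Stmn1, Cdk1, Ccnb2 and Aurka), where 10.1% of all genes reached it. No fall was called among them in the alternative fits run, and in the fit without moderation 5 members had an unadjusted p under 0.05. Directions were less even. The KO mean on the log2 scale was higher in 29 of 34 genes, 14 of 16 for replication and 15 of 18 for mitosis, against 39.3% of all genes. With the probe sets of a gene averaged it was higher in 27 of 34. In 4 of the 8 genes with more than 1 probe set (Lig1, Plk1, Stmn1 and Tk1) the probe sets differed in sign. Both KO arrays exceeded both WT arrays in 14 of 34 genes (10.6% of all genes) and lay below them in 0 of 34 (23.9% of all genes). The median log2 change was 0.07 for replication and 0.11 for mitosis genes, against -0.03 for all genes.

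For single genes the shifts were of the same order as the differences between arrays. The median absolute difference between the 2 WT arrays over the 34 genes was 0.11 and that between the KO arrays 0.10 on the log2 scale. The median absolute change between genotypes was 0.09. That change is a difference between means of 2 arrays, which array noise moves less than a difference between single arrays, so the sizes are not directly comparable. Measured from each gene's own mean, the median gene lay at -0.05 on both WT arrays and at 0.06 and 0.05 on KO replicates 1 and 2. The median over a list thus differed less between arrays of a genotype than single genes did, with an SD between replicates of 0.019 for the replication and 0.039 for the mitosis median. The 95% intervals of all 33 genes that did not pass lay within a 1.5-fold change in either direction, the highest bound being 1.48-fold for Stmn1. These intervals rest on a spread shared by all probe sets of like signal. With 1 array left out, the number of genes with a higher mean ran from 24 (without WT replicate 2) to 28 of 34.

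**Figure D4:**
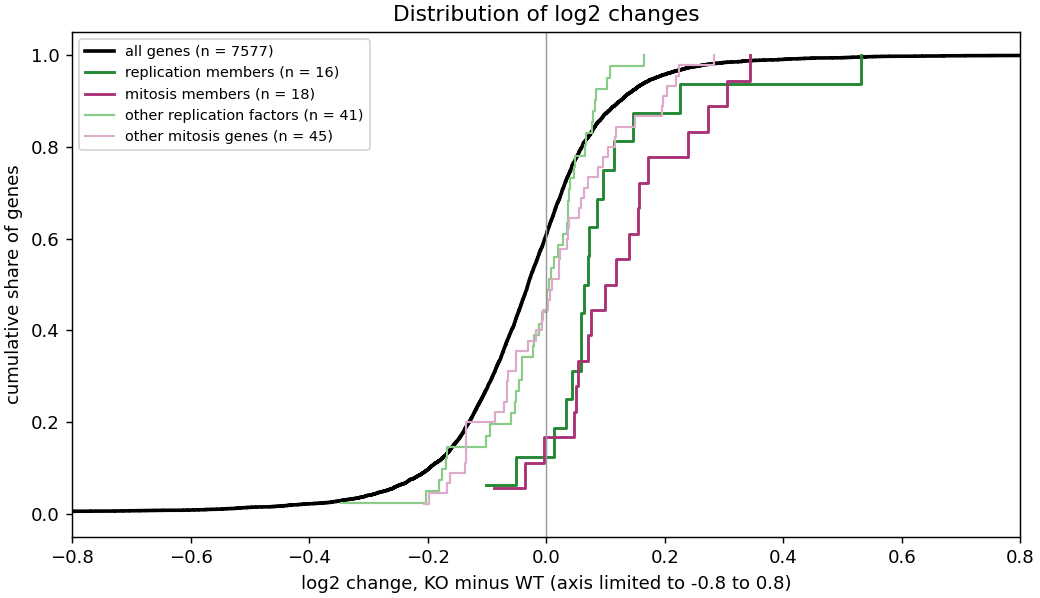
Cumulative share of genes (vertical axis) by log2 change, KO minus WT (horizontal axis, limited to -0.8 to 0.8), for all 7577 genes, the 16 replication and 18 mitosis genes with values, and the 2 wider lists of other replication factors (41) and other mitosis genes (45). The curves of the replication and mitosis genes run to the right of the curve of all genes, with medians of 0.07 and 0.11 against -0.03. Those of the wider lists cross 0 near their middle, with medians (0.0047 and 0.0092) that also lie above that of all genes.

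Wider lists of the same processes held no called gene. Of 41 other replication factors with values, such as origin recognition, polymerase and clamp loader subunits, none was called by limma (1 at an unadjusted p under 0.05) and 23 had a higher mean in KO, with log2 changes from -0.35 to 0.16. Of 45 other mitosis genes, such as kinetochore, condensin and cohesin genes, none was called (2 at an unadjusted p under 0.05) and 25 had a higher mean, from -0.21 to 0.28. The shares with a higher mean were thus 56.1% and 55.6%, against 39.3% of all genes. An unadjusted p under 0.05 was reached by 10.1% of all genes. Both KO arrays exceeded both WT arrays in 3 of the 41 and 10 of the 45 genes (10.6% of all genes), and both lay below in 5 of the 41 and 9 of the 45 (23.9% of all genes). The difference between these lists and the 34 genes was not tested. None of 21 replication-dependent histone genes had a probe set of its own with values under the name used.

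The lists of cycle regulators and of repair and checkpoint genes each held at least 1 called gene. Over all genes 0.937% were called higher and 2.32% lower, which stands beside each of these lists. Of 17 E2F, RB and MYB genes, 1 rose and 1 fell. Rbl1, which encodes the E2F-binding pocket protein p107, fell from 178.8 and 156.5 in WT to 103.6 and 111.1 in KO (log2 change -0.57, SE 0.11, adjusted p = 6.2e-05). Its KO signals lay below the highest antisense control (150.1 and 143.7), and that of KO replicate 1 also below the antisense control median (111.4). Rbl1 missed the threshold without WT replicate 1 (log2 change -0.48). Myc rose from 35.7 and 35.8 to 46.8 and 61.2, all below the antisense control median (log2 change 0.43, adjusted p = 0.0036), and missed it without WT replicate 1 (adjusted p = 0.094), WT replicate 2 (0.10) or KO replicate 2 (0.39). Of 15 CDK and phosphatase regulators, 1 rose: Cdkn1c, the CDK inhibitor p57, at 172.6 and 167.5 in WT and 321.0 and 375.9 in KO (log2 change 0.97, SE 0.12, adjusted p = 1.9e-12). Its call held with each array left out. Of 23 S-phase repair and checkpoint genes 1 fell, the damage kinase gene Atm, from 99.2 and 89.4 to 72.7 and 68.5, all below the antisense control median (log2 change -0.35, adjusted p = 0.047). It missed the threshold with any 1 array left out (adjusted p from 0.097 to 0.73), after quantile normalization (0.080), median centring (0.078) and cyclic loess (0.084), and with the robust fit (0.063) or no intensity trend (0.051).

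Markers of other cells that a lavage can hold were read beside these genes. Of 13 fibroblast and mesothelial markers 11 had a higher mean in KO (39.3% of all genes) and 1 rose (Dcn). Over all genes 0.937% were called higher and 2.32% lower. The summed signals of the 13 were 2669 and 2618 in WT and 3210 and 3595 in KO, and their median log2 change was 0.11. An unadjusted p under 0.05 in limma's test was reached by 5 of them (10.1% of all genes). Both KO arrays exceeded both WT arrays in 6 (10.6% of all genes) and lay below them in 0 (23.9%). Dcn missed the threshold without WT replicate 1 (adjusted p = 0.14) or WT replicate 2 (0.41). Markers of resident peritoneal macrophages, which can renew themselves, summed to 1088 and 1065 in WT and 1083 and 1215 in KO, with 0 of 7 called. Fn1 alone gave 473.3 and 512.2 of the WT sums and 499.0 and 617.7 of the KO sums. Of the 7, 2 exceeded the antisense control median on all arrays, and 4 had a higher mean in KO. Gata6, the 1 with an unadjusted p under 0.05, read 102.4 and 88.7 in WT and 118.5 and 123.0 in KO, without overlap (log2 change 0.30, adjusted p = 0.16). Of 10 neutrophil markers 1 fell (S100a8) and 4 had a higher mean in KO, with sums of 1756 and 1830 in WT and 1637 and 1578 in KO. S100a8 alone gave 516.9 and 542.2 of the WT sums and 330.8 and 370.2 of the KO sums. It was not called when WT replicate 1 (log2 change -0.61) or WT replicate 2 (-0.54) was left out. No marker was called among 8 for B cells (median log2 change -0.0095), 8 for T and NK cells (-0.06), 7 for dendritic cells (-0.08), 7 for mast cells and basophils (0.03), 3 for eosinophils (-0.05) and 4 for erythroid progenitors (-0.02). The part of other cells in the shifts of the replication and mitosis genes was not tested.

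Over all probe sets, 331 passed, 89 higher (26.9%) and 242 lower in KO. Quantile normalization called 595 with 43.9% higher, and cyclic loess 595 with 40.7% higher. Under both, Mcm3, Cdk1 and Stmn1 were the genes called among the 34, and 32 of 34 had a higher mean in KO, where the median change of all genes was 0.0088 and 0.0037. Without WT replicate 1 there were 105 calls in all and without WT replicate 2 there were 90, with 0 of the 34 genes among them either time.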

How the data were processed

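RNA of 2 WT and 2 KO samples was hybridised to 1 Affymetrix array each, from 10 µg of total RNA per the labels. The deposited table holds linear intensities, 1 for each array and probe set. For probe summary, background subtraction and scaling the authors' steps are not given in the sources used here. It has 12488 rows, and without 1780 that were blank throughout and 59 controls there were 10649 probe sets (9389 with 1 gene in the platform annotation, 341 with several, 919 with none). Only probe sets with 1 gene were named.

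KO was compared with WT on log2(intensity + 16), as deposited and with no signal filter, by limma 3.58.1 in R 4.3.3 (lmFit, eBayes with intensity trend), two-sided, adjusted p under 0.05. Because limma estimated infinite prior degrees of freedom, the spread of a probe set was that of the trend at its signal, and small p-values rest on that. The members and lists were chosen with earlier results of these data known. Values on every array are given for members past the threshold, the 12 replication and 12 mitosis members with the largest absolute change and the member with the smallest p in each role. Mki67, Mcm2 and the shared Tyms probe sets were added to them. Pathway genes are named where they passed. On simulated data for this comparison (10649 probe sets, 200 changed), 100% of changes of 1 and 76% of changes of 0.5 were recovered, with 3 false calls among 179. The simulated noise was independent between arrays and had the spread that the main fit gave. These rates thus cannot show how the test fares where probe sets differ in spread or replicates correlate. Alternatives were other pseudocounts, filters, scalings, variance models, thresholds, a replicate block, averaging the probe sets of a gene, and each array left out. Plots used matplotlib 3.10.9 (Python 3.11.15).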

Additional observations from a re-analysis of the deposited data

How the results depend on the processing

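Of 331 probe sets called, there were 182 with a filter at the 60th percentile, 595 after quantile normalization, 595 after cyclic loess, 0 without moderation (704 at an unadjusted p under 0.05), and 90 to 359 with 1 array left out. The number of called genes among the 34, 1 as reported, was 3 after quantile normalization, 3 after cyclic loess, 2 after median centring, 2 at an adjusted p of 0.1, 0 without moderation, and 0 to 1 with 1 array left out. The median log2 change of the replication genes, 0.07, was 0.091 with the 40th percentile filter, which leaves 10 of the 16 genes, 0.11 after quantile normalization, 0.093 after median centring, 0.10 after cyclic loess, and 0.056 to 0.098 with 1 array left out. That of the mitosis genes, 0.11, moved by less than the spread between replicates (0.04) in every alternative run for it. The replicate numbers do not pair the samples by any label. The differences between replicates correlated at 0.31 between genotypes over probe sets, and the fit with the replicate block called 706 probe sets and 3 of the 34 genes (Mcm3, Cdk1 at adjusted p = 0.027 and Stmn1 at 0.0087). With 1 array left out, the sign turned in 14 of the 34 genes, none of them called. Leaving out WT replicate 1 turned 5 genes and WT replicate 2 turned 7, and leaving out KO replicate 1 turned 2 genes and KO replicate 2 turned 7. Beside Mcm2, Rrm1, Rrm2, Plk1, Aurkb, Nek2, Ube2c and Mki67 these were Foxm1, Hmgb2, Kif20a, Mcm4, Pcna and Pola1. Foxm1 ran from -0.11 to 0.20, Hmgb2 from -0.084 to 0.23, Kif20a from -0.19 to 0.010, Mcm4 from -0.0091 to 0.24, Pcna from -0.040 to 0.21 and Pola1 from -0.057 to 0.18, and Tk1 was -0.0072 with the mean of its probe sets, where Plk1 turned too. Quantile normalization and cyclic loess each turned Rrm2, Ube2c and Mki67, and median centring Mki67, to a higher KO mean. The causes were not tested. Signals below the antisense control median limit what can be read for the 13 dimmest genes. The same holds, by the highest antisense control, for other genes, Cdk1 and Stmn1 in WT among them.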
